A study of Mus musculus with 8 samples.

Results

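The Ly6/uPAR family genes described here were 9 of the 56884 annotated genes in the count table: Ly6a, Ly6c1, Ly6d, Ly6e, Ly6k, Ly6m, Lypd3, Plaur and Cd59a. They were taken by gene symbol from a list chosen by family membership with the knockout and parental counts of these 8 libraries already known, so their differences between genotypes are given below as descriptions without a test. Messenger RNA was sequenced in bulk from Lacun3, a mouse lung adenocarcinoma cell line. One group was the parental line with the genotype STK11 WT, and the other was the CRISPR-made Stk11-knockout line with the genotype STK11 KO, with 4 libraries each from cultures described as biological replicates. Stk11 encodes LKB1, a kinase that switches on AMPK and related kinases, and the comparison asks what its disruption changes in tumour cells grown alone. Both lines grew in DMEM with 10% serum and antibiotics, received no treatment and were harvested in logarithmic growth. The sources used here do not say whether the knockout line was 1 clone or a pool of edited cells, and a difference between 2 lines that arose in cloning cannot be told apart from one that follows the genotype.

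Proteins of this family share a small domain in which disulfide bonds hold finger-like loops together. Most are tethered to the outer leaflet of the plasma membrane by a glycosylphosphatidylinositol (GPI) anchor, and a few, such as the Slurp proteins, are secreted. Many of the mouse genes lie side by side in 1 cluster on chromosome 15, and several are used as antigens that mark stem cells, lymphocytes or monocytes. Plaur encodes uPAR, the receptor that holds urokinase, a plasminogen activator, at the cell surface. Lypd3 encodes C4.4A, a relative of uPAR known from stratified epithelium, and Cd59a encodes an inhibitor of the complement membrane attack complex.

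Depth was 18837263 to 21101904 counts a library for the parental line and 21441601 to 25715008 for the knockout line. Levels are given as CPM, which are counts relative to the library size scaled by edgeR's trimmed mean of M-values (TMM), and 1 count was worth 0.0388 to 0.0515 CPM. Stk11 itself was at 66.3 ± 1.79 CPM (SD, n = 4) in parental and 34.7 ± 0.853 CPM in knockout libraries, and the groups did not overlap. A CRISPR disruption need not remove the RNA, so this level is a partial check of the labels. The epithelial markers (7 genes, summed) lay between 8158 and 8589 CPM in parental and between 7699 and 8607 CPM in knockout libraries, with Krt19 the most abundant and Cldn7 at 0.

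Of the 9 genes, 5 were well detected in both groups (Ly6e, Plaur, Ly6d, Ly6a and Ly6c1), 2 were detected almost only in the knockout libraries (Ly6m and Lypd3), and 2 were at or near 0 throughout (Ly6k and Cd59a). The expression filter kept 6 of the 9, all but Lypd3, Ly6k and Cd59a. Ly6m passed it only through its counts in the knockout libraries. In mean level, Ly6m, Ly6d and Plaur were higher and Ly6e, Ly6a and Ly6c1 were lower in the knockout libraries, and these values are given without a test because the choice of the 9 genes used this contrast. Other genes were tested at an adjusted p under 0.05 (edgeR's quasi-likelihood test, Benjamini-Hochberg over 13707 genes), by which 34.4% of all tested genes were higher and 33.5% were lower in the knockout libraries. In bulk RNA, fewer cells that express a gene and less RNA per cell cannot be told apart.

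**Figure D1:**
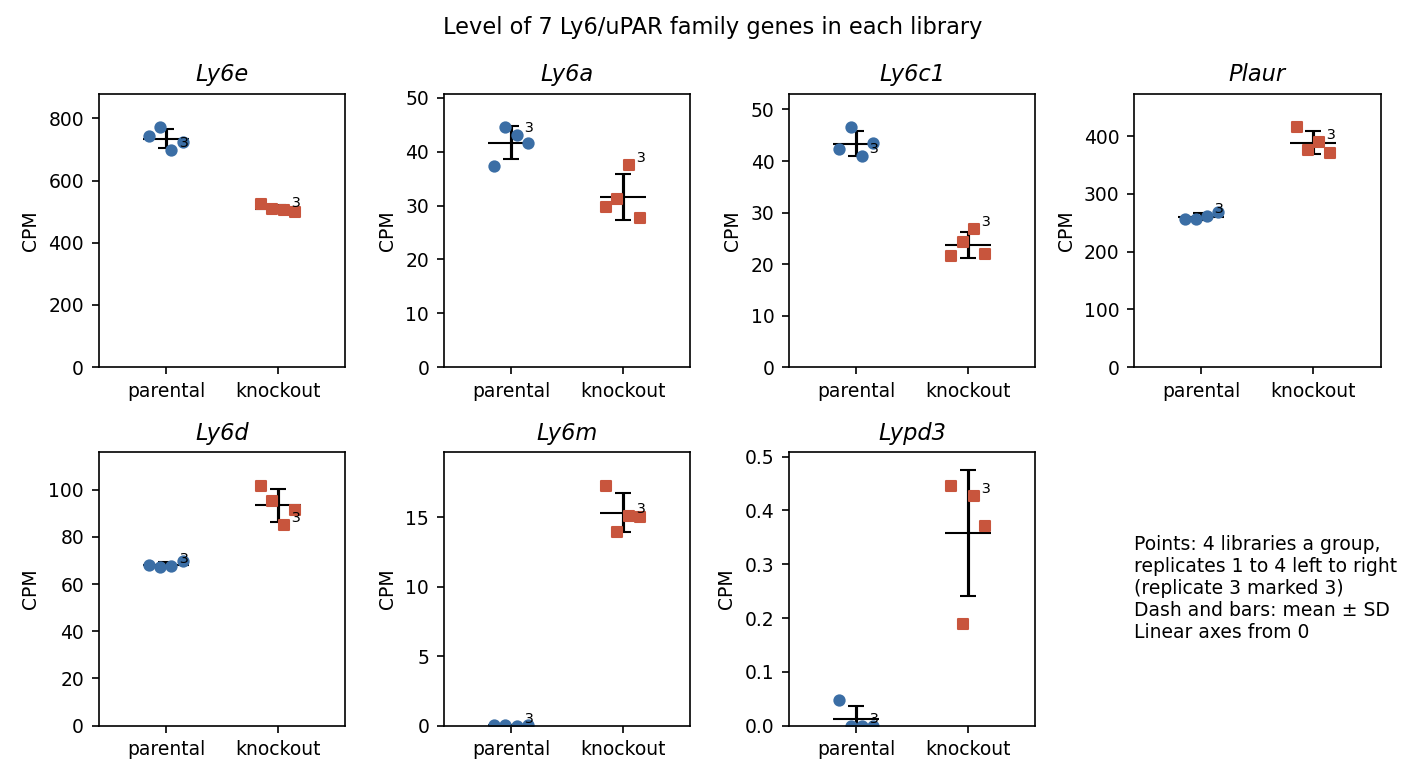
CPM of Ly6e, Ly6a, Ly6c1, Plaur, Ly6d, Ly6m and Lypd3 (linear axes from 0) in the 4 parental libraries (blue circles) and the 4 knockout libraries (red squares), with the mean ± SD; replicate 3 is marked. Ly6e and Ly6c1 are lower in every knockout library, Plaur, Ly6d, Ly6m and Lypd3 are higher in every knockout library, and for Ly6a knockout replicate 3 at 37.6 CPM lies above parental replicate 1 at 37.4 CPM.

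The cluster genes known as lymphocyte antigens come first. Ly6e, also called Sca-2 or TSA-1, is an interferon-induced antigen of immature thymocytes that many other cells also carry. It lies on chromosome 15, 74826900 to 74831752, plus strand, in GRCm39. Its levels were 744, 772, 699.5 and 724 CPM in parental replicates 1 to 4 and 526, 508, 504 and 499 CPM in knockout replicates 1 to 4. Every knockout library was below every parental one. The means were 735 ± 30.7 and 509 ± 11.9 CPM (SD, n = 4), and the fitted log2 fold change, knockout over parental, was -0.53 ± 0.05 (SE), or 1.44-fold lower.

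Ly6a, or Sca-1, is the antigen used to isolate mouse blood stem cells (chromosome 15, 74866726 to 74869880, minus strand, GRCm39). Its levels were 37.4, 44.6, 43.1 and 41.6 CPM in the parental libraries and 29.7, 31.3, 37.6 and 27.8 CPM in the knockout libraries. The groups overlapped, because knockout replicate 3 was level with the lowest parental library. The means were 41.7 ± 3.08 and 31.6 ± 4.24 CPM, and the log2 fold change was -0.40 ± 0.08 (SE). Without knockout replicate 3 it was -0.49.

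Ly6c1 encodes a form of Ly-6C, an antigen of monocytes, T cell subsets and endothelium (chromosome 15, 74915867 to 74920679, minus strand, GRCm39). Its levels were 42.4, 46.6, 40.9 and 43.6 CPM in the parental libraries. The knockout libraries had 21.7, 24.4, 26.9 and 21.9 CPM, all below the parental ones. The means were 43.4 ± 2.41 and 23.7 ± 2.44 CPM, a log2 fold change of -0.87 ± 0.07 (SE). Knockout replicate 3 was again the highest of its group, 0.24 above the mean of the other 3 on the log2 scale, and the same difference was 0.34 for Ly6a and -0.18 for Ly6d.

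Ly6c1 has a close copy, Ly6c2, which lies 59.3 kb away on the same strand and stood at 0.523 ± 0.155 CPM in parental and 0.398 ± 0.244 CPM in knockout libraries. Their coding sequences, 393 bases each in the GENCODE M21 annotation of GRCm38, were identical at 97.7% of positions, with 9 differences. The first coding blocks are shown because 6 of the 9 coding differences between the 2 genes fall there. They are the 70 bases from the start codon, minus strand, at chr15:75048442-75048511 for Ly6c1 and chr15:75111598-75111667 for Ly6c2 (GRCm38), with the differing positions in capitals.
Ly6c1: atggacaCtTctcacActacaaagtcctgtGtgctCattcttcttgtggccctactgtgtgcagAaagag
Ly6c2: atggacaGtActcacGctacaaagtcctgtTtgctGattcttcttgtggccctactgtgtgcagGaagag
Of the 794 stretches of 51 bases, the length of 1 read, in the longest Ly6c1 transcript, 36.0% also occurred in another gene, 247 of them in Ly6c2 and 39 in Ly6a. The share was 9.72% for Ly6a and 0% for Ly6d, Ly6e and Plaur. The sources used here do not say how reads with several matches were counted, so the division of counts between Ly6c1 and Ly6c2 is uncertain, whereas Ly6e, Ly6d and Plaur held no such stretch.

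Since Ly6a and Ly6c1 also mark blood and vessel cells, the markers of those cells are given beside them. The 12 leukocyte markers summed to 80.5 to 91.6 CPM in parental and 47.7 to 59.3 CPM in knockout libraries. Most of this was Cd68 (48.9 to 19.2 CPM, mean parental to mean knockout) and Cd14 (33.5 to 29.3 CPM), whereas Ptprc, which encodes the pan-leukocyte antigen CD45, had 1 count in all 8 libraries, and Adgre1 and Csf3r were at 0. The 8 endothelial markers summed to 2.11 to 3.81 CPM in parental and 3.65 to 5.05 CPM in knockout libraries, with Kdr, Tie1 and Emcn at 0. The 8 fibroblast markers summed to 3.92 to 5.72 and 2.03 to 3.07 CPM, with Col1a2 and Lum at 0. The leukocyte and fibroblast sums were lower in every knockout library, and the endothelial sums overlapped between the groups. The tested leukocyte and endothelial markers went in both directions, and the tested fibroblast markers fell. The part of such cells in the levels of Ly6a and Ly6c1 was not tested.

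Ly6d, also known as ThB, is an antigen of keratinocytes and B lineage progenitors (chromosome 15, 74633905 to 74635469, minus strand, GRCm39). Its parental levels lay close together at 68.2, 67.3, 67.5 and 69.7 CPM. The knockout libraries had 102, 95.3, 84.9 and 91.5 CPM, all above the parental range. The means were 68.2 ± 1.08 and 93.4 ± 7.02 CPM, a log2 fold change of 0.45 ± 0.06 (SE), or 1.37-fold higher.

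Ly6m was almost absent from the parental libraries (chromosome 15, 74748836 to 74768870, minus strand, GRCm39). It had 1, 1, 0 and 1 counts in parental replicates 1 to 4 and 349, 296, 389 and 325 counts in knockout replicates 1 to 4. In CPM the knockout libraries had 17.3, 13.9, 15.1 and 15.1, a mean of 15.4 ± 1.40. A group with 3 counts gives no firm fold, so the count ratio, knockout over parental and corrected for library size, is given with its exact Clopper-Pearson 95% interval: 428, from 146 to 2077. This interval and those below cover counting error only. Of the 1834 stretches of 51 bases in its longest transcript, 1.53% occurred in another gene.

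Ly6k, a testis-expressed member of the family, had no counts in any of the 8 libraries. A count of 0 over the 4 libraries of a genotype allows a level of up to 0.0358 CPM (parental) or 0.0338 CPM (knockout), the worth of 3 counts.

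Plaur encodes the urokinase receptor and lies on chromosome 7, 24161909 to 24175393, plus strand, in GRCm39. Its parental levels were 256, 256, 261 and 269 CPM. The knockout levels were 416, 376, 389 and 371 CPM, and the lowest of them was above every parental library. The means were 261 ± 6.20 and 388 ± 19.9 CPM, a log2 fold change of 0.57 ± 0.05 (SE), or 1.49-fold higher.

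Lypd3 lies 161 kb from Plaur on the same strand (chromosome 7, 24335975 to 24340543, GRCm39). It had 1, 0, 0 and 0 counts in the parental and 9, 4, 11 and 8 counts in the knockout libraries, which left it below the filter and untested. The count ratio, knockout over parental, was 30.2 with a Clopper-Pearson 95% interval from 5.05 to 1230. Even the knockout level, 0.358 ± 0.118 CPM, was low. Cd59a (chromosome 2, 103926146 to 103945699, plus strand, GRCm39) had 1 count, in knockout replicate 3, and its copy Cd59b also had 1 count, in the knockout group.

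Levels of different genes can be compared only per length. Divided by exonic length (union of exons in GENCODE M21), the order in the parental libraries was Ly6e at 194 ± 8.12 CPM per kb, Plaur at 99.6 ± 2.37, Ly6d at 91.7 ± 1.45, Ly6a at 34.6 ± 2.56 and Ly6c1 at 25.9 ± 1.43 (SD, n = 4), with no overlap between neighbours in that order. In the knockout libraries Plaur stood first at 148 ± 7.59 CPM per kb. Ly6e followed at 135 ± 3.14 and Ly6d at 125 ± 9.43, and the ranges of these last genes overlapped. Ly6a at 26.2 ± 3.52, Ly6c1 at 14.1 ± 1.46, Ly6m at 4.65 ± 0.424 and Lypd3 at 0.217 ± 0.0713 came next, each apart from the next. The remaining genes, Ly6m, Lypd3, Ly6k and Cd59a in the parental and Cd59a and Ly6k in the knockout libraries, could not be ordered.

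The rest of the family was taken from a list of 53 other Ly6/uPAR genes, 52 of which were in the table. Of these, 31 had at least 1 count and 15 passed the filter. In the knockout libraries 5 of the 15 rose, 7 fell and 3 did not pass the test, against 67.9% of all tested genes called in either direction. The median log2 fold change of the 15 was -0.37, and that of all tested genes was 0.01. The groups did not overlap for 12 of the 15, against 60.6% of all tested genes.

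Lynx1, which encodes a GPI-anchored modulator of nicotinic acetylcholine receptors, was the most abundant relative. It had 191, 195, 183 and 181 CPM in the parental libraries and 52.2, 47.3, 49.3 and 44.6 CPM in the knockout libraries, so that the groups lay far apart. Its log2 fold change was -1.96 ± 0.06 (SE; edgeR adjusted p = 1.83e-18). Slurp1, which encodes a secreted ligand of the same receptors made by keratinocytes, went the other way, from 1.48, 1.30, 1.93 and 1.39 CPM to 25.6, 25.0, 23.7 and 27.8 CPM. It rose by 4.06 ± 0.12 on the log2 scale (SE; edgeR adjusted p = 2.59e-18). The secreted relative Slurp2 fell, at lower levels (0.73 to 0.148 CPM; log2 fold change -2.27 ± 0.45).

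The antigen genes closest in sequence to Ly6a and Ly6c1 were low. Ly6g encodes the neutrophil antigen Ly-6G and fell from 7.43 ± 0.894 to 3.36 ± 0.664 CPM (log2 fold change -1.15 ± 0.15, SE; edgeR adjusted p = 3.53e-07). Ly6g2 fell from 7.5 ± 0.813 to 2.69 ± 0.211 CPM (-1.48 ± 0.14). Ly6f fell from 2.01 ± 0.475 to 0.367 ± 0.174 CPM (-2.46 ± 0.32; edgeR adjusted p = 3.35e-07). For these 3 genes every knockout library lay below every parental one. Ly6c2 did not pass (log2 fold change -0.37 ± 0.41; edgeR adjusted p = 0.437), and Ly6i, with 4 parental and 2 knockout counts, was not tested.

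Outside these, Psca, known as prostate stem cell antigen, fell by 1.28 ± 0.26 on the log2 scale (2.01 to 0.816 CPM), and Cd177, a neutrophil antigen gene, fell by 0.80 ± 0.23 (1.95 to 1.12 CPM). The risers were Lypd6b (3.28 to 6.83 CPM; log2 fold change 1.07 ± 0.16), Lypd5 (0.648 to 1.69 CPM; 1.37 ± 0.31), Pate14 (0.346 to 2.40 CPM; 2.76 ± 0.35) and Pate2 (0.372 to 0.697 CPM; 0.90 ± 0.38). Pate2 was close to the threshold (edgeR adjusted p = 0.0391) and did not pass in 9 of the alternative analyses. Its value without parental replicate 3 was 0.57 (edgeR adjusted p = 0.153). Of the Pate14 stretches of 51 bases 80.0% also occur in the annotated gene Gm49367, so its counts are uncertain. Lypd2 and Lypd1 did not pass, with log2 fold changes of 0.64 ± 0.36 and 0.37 ± 0.19. Lypd1 did pass without parental replicate 1 (0.49; edgeR adjusted p = 0.0385) and with limma on the deposited log2 values (0.39; limma adjusted p = 0.0409). Of the Lypd1 stretches of 51 bases 18.4% also occur in another gene, 1155 of them in Gpr39, so part of its counts is uncertain. Among untested relatives, Gml2 had 3 parental and 19 knockout counts and Pate8 had 0 and 14, whereas Ly6g5b had 13 and 10 and Gml had 7 and 4. Of the Gml2 stretches of 51 bases 24.8% also occur in Gml.

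The coding sequences divided the family in a way that the choice of genes did not use. Ly6a, Ly6c1, Ly6c2, Ly6i, Ly6g, Ly6g2 and Ly6f were 76.1% to 97.7% identical to each other over 21 pairs. Identity was taken over the whole alignment, gaps included, which lowers it between genes of unlike length. Ly6a and Lypd3, for example, had 282 identical bases among 399 aligned ones but scored 25.8%. Against the 10 other genes compared, these 7 genes were at 24.8% to 52.3%. Ly6e, Ly6d and Ly6m were in this second class although they lie in the same cluster. Of the 5 close relatives of Ly6a and Ly6c1 in the first class, Ly6g, Ly6g2 and Ly6f fell, Ly6c2 did not pass and Ly6i was not tested, beside 33.5% of all tested genes that fell.

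**Figure D2:**
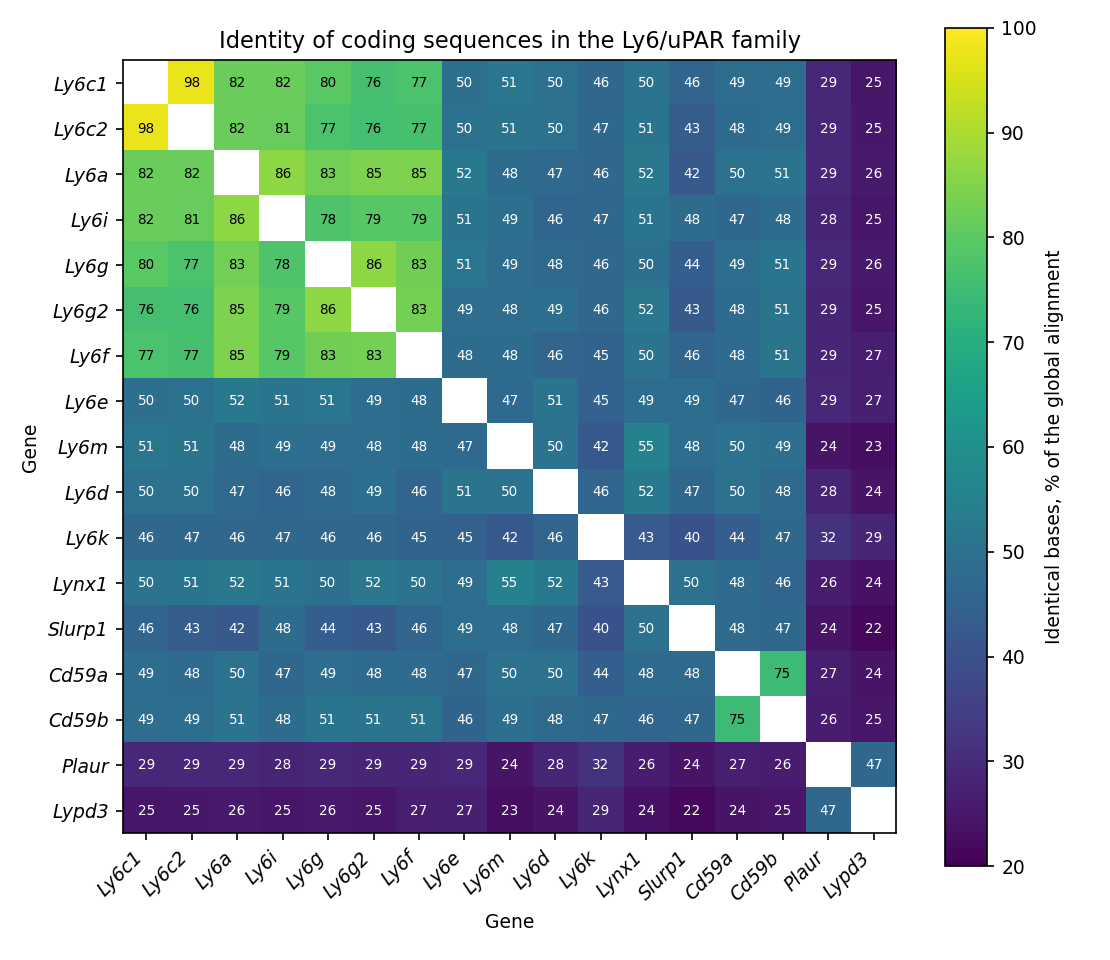
Percent of identical bases over the whole alignment, gaps included, between coding sequences (GENCODE M21) of 17 Ly6/uPAR family genes. Both axes list the genes, and colour and number give the identity, which unlike lengths lower. The 7 genes from Ly6c1 to Ly6f form a block of 76.1% or more, Cd59a and Cd59b share 74.9%, and Plaur and Lypd3 are at 47% with each other and lower with the rest.

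Promoters were compared where RefSeq's table for GRCm38.p6 held one, which was the case for 4 of the 9 genes (Ly6c1, Plaur, Lypd3 and Cd59a). Ly6c1 is printed with Ly6g and Ly6f, which fell, and with its copy Ly6c2, which was scarce, because these 4 windows are related in sequence. Each runs 5′ to 3′ from 250 bases before to 50 bases after the most upstream annotated start: chr15:75048788-75049087 (minus strand) for Ly6c1, chr15:75155011-75155310 (plus) for Ly6g, chr15:75268171-75268470 (plus) for Ly6f and chr15:75111922-75112221 (minus) for Ly6c2, all in GRCm38.p6. Capitals mark CCAAT, searched on both strands, and TATAAA, searched on the gene's strand.
Ly6c1: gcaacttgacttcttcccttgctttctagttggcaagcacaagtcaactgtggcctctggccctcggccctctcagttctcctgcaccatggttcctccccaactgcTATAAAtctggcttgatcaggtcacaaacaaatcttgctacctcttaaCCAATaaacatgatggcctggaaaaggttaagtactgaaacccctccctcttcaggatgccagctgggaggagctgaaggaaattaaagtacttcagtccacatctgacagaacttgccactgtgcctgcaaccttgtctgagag
Ly6g: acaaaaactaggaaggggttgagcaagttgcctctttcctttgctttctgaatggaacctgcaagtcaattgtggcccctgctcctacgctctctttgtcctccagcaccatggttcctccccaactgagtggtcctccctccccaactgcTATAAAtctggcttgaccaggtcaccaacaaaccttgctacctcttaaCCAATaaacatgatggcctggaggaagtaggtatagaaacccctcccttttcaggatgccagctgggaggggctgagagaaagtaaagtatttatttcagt
Ly6f: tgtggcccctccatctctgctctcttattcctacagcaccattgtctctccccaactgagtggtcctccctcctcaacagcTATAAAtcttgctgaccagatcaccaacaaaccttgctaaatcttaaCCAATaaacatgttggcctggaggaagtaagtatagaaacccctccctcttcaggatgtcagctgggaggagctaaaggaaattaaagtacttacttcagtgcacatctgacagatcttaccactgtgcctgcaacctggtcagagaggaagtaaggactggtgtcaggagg
Ly6c2: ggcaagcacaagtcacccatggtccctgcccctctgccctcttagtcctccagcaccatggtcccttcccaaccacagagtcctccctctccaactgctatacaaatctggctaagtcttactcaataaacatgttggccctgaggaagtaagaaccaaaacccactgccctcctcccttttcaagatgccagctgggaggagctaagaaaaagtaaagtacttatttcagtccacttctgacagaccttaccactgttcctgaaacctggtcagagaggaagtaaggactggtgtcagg
Over aligned bases the Ly6c1 window was 84.5% identical to that of Ly6g, 86.0% to that of Ly6f and 78.2% to that of Ly6c2. Ly6c1, Ly6g and Ly6f each held TATAAA followed by CCAAT, at 143 and 95 bases before the start in Ly6c1, 99 and 51 in Ly6g, and 169 and 122 in Ly6f. The Ly6c2 window held neither string. Ly6c1 has a second annotated start 174 bases downstream whose window held neither, and Ly6g one 68 bases downstream whose window held both. Of the 32851 windows listed, 37.4% held CCAAT, 8.32% held TATAAA and 3.31% held both. These motifs were picked after the sequences had been seen. The longest run shared by Ly6c1, Ly6g and Ly6f, tcttaaccaataaacatg, spans the CCAAT and occurred in 4 of all windows. All of them belong to these genes, since both Ly6g windows hold it. The longest runs common to all 4 genes had 11 bases, caataaacatg and cagctgggagg, found in 12 and 26 of all windows, these genes' own windows included. The interferon-stimulated response element (both strands; 3.44% of windows) and a gamma-activated site (TTCNNNGAA, both strands; 8.30%) had no match in these 4 windows. The Cd59a window, which is not printed, held a match to the response element, GAAAGGGAAA, beginning 187 bases before the start. Cd59a had 1 count in all libraries together, and binding was not tested. The Lypd3 window, also not printed, matched neither.

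The Plaur window is printed because the gene differed between the groups and its window holds an AP-1 site, marked in capitals (TGANTCA, both strands; 7.81% of windows). It covers chr7:24462233-24462532, plus strand, GRCm38.p6.
Plaur: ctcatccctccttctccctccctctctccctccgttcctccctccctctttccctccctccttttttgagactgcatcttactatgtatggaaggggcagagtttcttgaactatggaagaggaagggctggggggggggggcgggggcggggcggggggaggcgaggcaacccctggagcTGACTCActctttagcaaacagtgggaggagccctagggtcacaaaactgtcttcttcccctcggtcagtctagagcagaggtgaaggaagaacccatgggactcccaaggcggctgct
The match, TGACTCA, begins 69 bases before the annotated start. A match to letters is a description and does not show that a factor binds there.

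By position, the chromosome 15 cluster ran from Psca at 74586688 to the end of Gpihbp1 at 75471330 in GRCm39, over 885 kb, with 22 family genes among 53 annotated genes. Of its 10 tested genes that are not among the 9, Slurp1 alone rose, 7 fell and 2, Lypd2 and Ly6c2, did not pass, against 34.4% higher and 33.5% lower over all tested genes. The single tested gene of another family, Them6, fell from 70.5 ± 3.39 to 23.8 ± 0.991 CPM (log2 fold change -1.57 ± 0.06, SE; edgeR adjusted p = 4.09e-16). Genes with opposite directions were neighbours: Lynx1 fell while Ly6d, 9.01 kb away on the same strand, was higher. Slurp1 and Them6 overlap by 322 bases on opposite strands and went in opposite directions, and since the strand setting of the counting is not given, their shared reads cannot be divided. No annotated gene with more than 1 count in any single library overlapped any of the 9 genes.

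**Figure D3:**
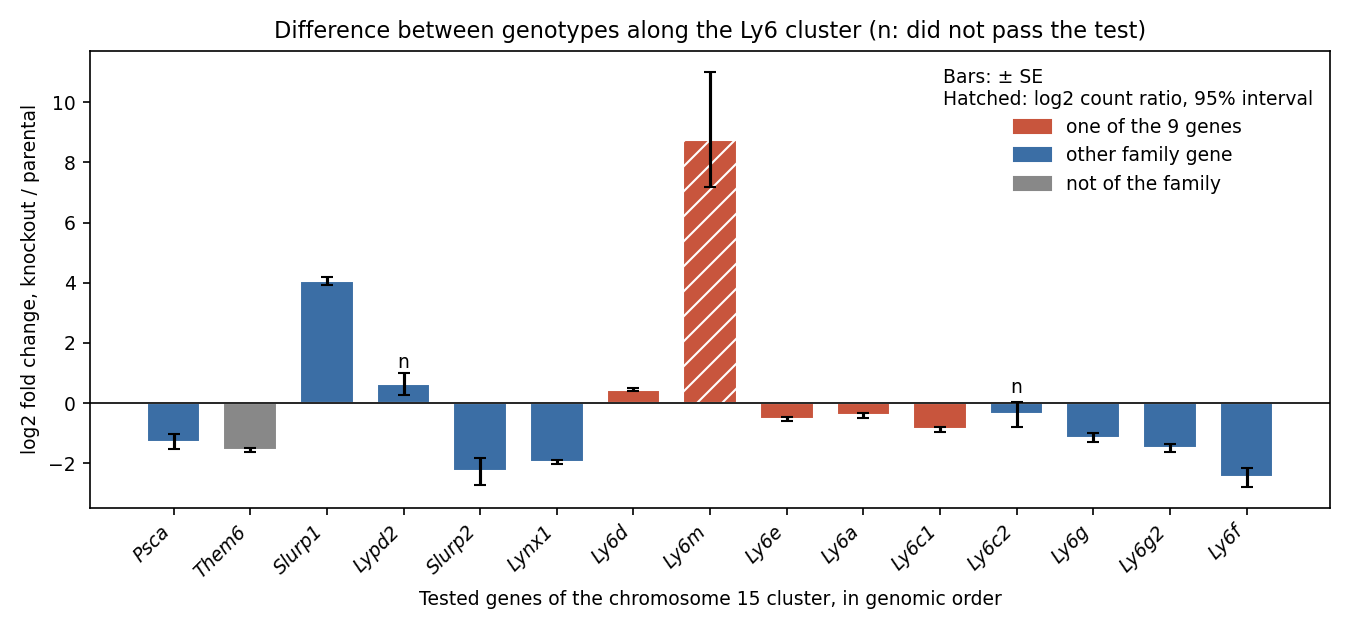
Log2 fold change, knockout over parental, of the 15 tested genes of the chromosome 15 cluster in genomic order, with bars of ± SE; red marks the genes chosen for this description, blue other family genes and grey Them6, and n marks genes that did not pass. The hatched Ly6m bar is the log2 of its count ratio of 428 with the 95% interval. Slurp1 at 4.06 and Lynx1 at -1.96 show that genes within the cluster differ in direction.

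On chromosome 7 the genes within 100 kb of Plaur went in both directions. Kcnn4 (log2 fold change 0.21 ± 0.06) and Smg9 (0.61 ± 0.08) rose, Cadm4 (-0.65 ± 0.11), Irgq (-0.41 ± 0.06) and Xrcc1 (-0.26 ± 0.06) fell, and Zfp428 did not pass. Around Lypd3 the 4 tested neighbours all fell, Irgq, Xrcc1, Ethe1 (-0.78 ± 0.07) and Phldb3 (-1.10 ± 0.12), while Lypd3 had more counts in the knockout libraries. Near Cd59a, Fbxo3 fell by 0.28 ± 0.05 on the log2 scale, from 79.1 to 65.1 CPM, and Cd59a had no more than 1 count.

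The partners of uPAR were taken from a list of 21 genes of the urokinase system, 15 of them tested. Among these there were 9 risers, 4 fallers and 2 genes that did not pass, and the median log2 fold change was 0.49. The shares over all tested genes were 34.4% higher and 33.5% lower. Plau, which encodes urokinase, the ligand of uPAR, did not pass: it had 36.7, 37.2, 37.5 and 36.1 CPM in the parental libraries and 36.7, 31.7, 34.5 and 31.2 CPM in the knockout libraries (log2 fold change -0.14 ± 0.07, SE; edgeR adjusted p = 0.0719). Without knockout replicate 1 the value was -0.18 and passed (edgeR adjusted p = 0.0210), and with upper quartile scaling it was -0.15 and passed (edgeR adjusted p = 0.0485). The ligand RNA was thus at most slightly different between the groups, which overlapped, beside a receptor RNA that was higher in every knockout library.

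The plasminogen activator inhibitor genes Serpine2 and Serpinb2 had 6 and 8 counts in the parental group and 628 and 584 in the knockout group, and both rose. Like Ly6m, they passed the expression filter only through their counts in the knockout libraries, and they are among the risers counted above. Plat, the tissue-type plasminogen activator, rose from 598 ± 37.3 to 1593 ± 313 CPM (1.41 ± 0.12). Among membrane partners, the integrin gene Itgb3, whose product pairs with that of Itgav as a vitronectin receptor, rose from 19.9 ± 0.896 to 118 ± 9.54 CPM (2.56 ± 0.07), and Itgav, Itga5, Itgb1 and the annexin gene Anxa2 rose by less, with log2 fold changes of 0.29 to 0.80. Itgb5 (-1.07 ± 0.06), Plgrkt (-0.80 ± 0.07), S100a10 (-0.44 ± 0.07) and Lrp1 (-0.27 ± 0.08) fell. Plg, which encodes plasminogen, had no counts, and Vtn, which encodes vitronectin, the other ligand of uPAR, had 1.

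**Figure D4:**
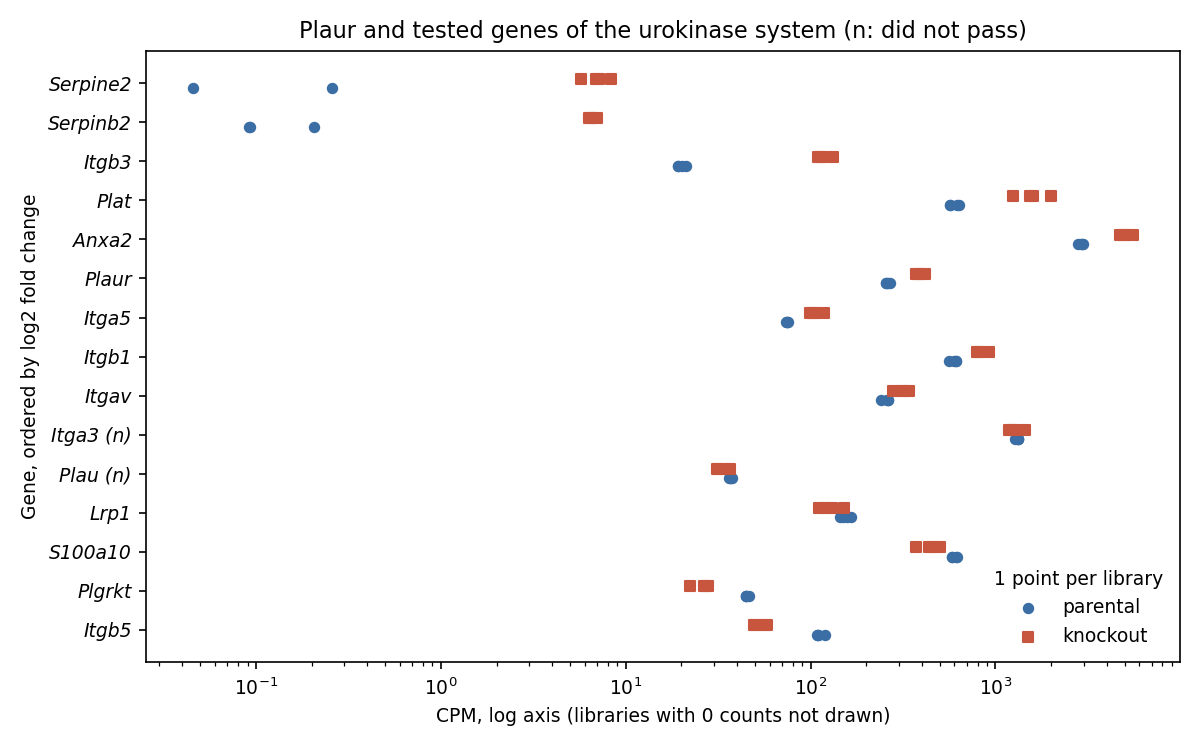
CPM (log axis) of Plaur and tested genes of the urokinase system in each parental (blue circles) and knockout (red squares) library, ordered by log2 fold change; n marks the genes that did not pass the test, and libraries with 0 counts are not drawn. The knockout libraries of Serpine2, Serpinb2, Itgb3 and Plat lie to the right of the parental ones, and Plau overlaps between the groups.

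Cd59a acts on the last step of complement, and 25 complement genes were listed, 9 of them tested. Of these, 4 rose and 5 fell (median log2 fold change -0.21), where 67.9% of all tested genes were called. With Cd59a and Cd59b near 0, the membrane regulators with counts were Cd55, Cd46 and Cr1l, which act earlier in the cascade. Cd55, whose GPI-anchored product speeds the decay of the convertases, had 0.762, 0.603, 0.963 and 0.670 CPM in the parental libraries and 4.71, 4.71, 4.82 and 4.50 CPM in the knockout libraries. It rose by 2.63 ± 0.20 on the log2 scale (SE; edgeR adjusted p = 3.93e-11). Cr1l, which encodes the rodent regulator Crry, rose by 0.57 ± 0.07 and Cd46 by 0.68 ± 0.22. C3, the central component, rose from 122 ± 7.0 to 348 ± 42.6 CPM (1.51 ± 0.07). Clu, which encodes the soluble inhibitor clusterin, fell from 279 to 50.2 CPM (-2.48 ± 0.08), and C1ra fell by 0.87 ± 0.09. Without parental replicate 1, and likewise without knockout replicate 1, only 3 genes passed as lower.

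Most proteins of the family need the GPI pathway to reach the surface. Of 30 tested genes of that pathway, 7 rose and 11 fell, 12 missed the threshold, and the median log2 fold change was -0.08. The share called over all tested genes was 67.9%. In the pathway 2 genes changed 2-fold or more, both down. Pigo, which encodes an ethanolamine phosphate transferase of the anchor, rose from 17.6 to 32.1 CPM (0.87 ± 0.08). Pigc (0.55 ± 0.08) and Pigq (0.38 ± 0.06) also rose, whereas Pigh (-1.08 ± 0.12) fell, although all 3 encode subunits of the enzyme that makes the first intermediate. Pgap1, the deacylase that trims the inositol of the anchor, fell from 457 ± 19.1 to 231 ± 15.3 CPM (-0.98 ± 0.06). Gdpd5, one of the phosphodiesterases that can release GPI-anchored proteins from the membrane, fell from 75.3 ± 1.5 to 23.1 ± 1.69 CPM (-1.70 ± 0.06, SE; edgeR adjusted p = 1.20e-16).

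Ly6e and Ly6a are known to respond to interferon, so 25 other interferon-induced genes were set beside them. Of the 19 tested, 5 rose, 8 fell and 6 did not pass (median log2 fold change -0.22). Over all tested genes, 34.4% were higher and 33.5% lower, 67.9% together. The nuclease gene Isg20 (128 to 514 CPM; 2.00 ± 0.07), Gbp2 (1.13 to 3.92 CPM; 1.79 ± 0.20) and Xaf1 (1.02 ± 0.23) rose. Irgm1 (15.6 to 4.96 CPM; -1.65 ± 0.11), Bst2 (13.4 to 5.14 CPM; -1.39 ± 0.12), whose product tetherin is itself GPI-anchored, and Ifi35 (-0.91 ± 0.09) fell. Ifit1, Ifit2 and Isg15 were at 0.676 to 1.61 CPM in both groups and did not pass. The list thus held genes in both directions beside a lower Ly6e and Ly6a.

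Ly6d, Lypd3 and Slurp1 are known from stratified epithelium. Of 24 listed genes of that tissue 11 were tested, of which 6 rose, 4 fell and 1 did not pass (median log2 fold change 0.48). For comparison, 34.4% of all tested genes were higher and 33.5% were lower. The cornified envelope gene Sprr1b (1.76 to 9.92 CPM; 2.50 ± 0.15), the transcription factor genes Grhl3 (0.659 to 2.12 CPM; 1.69 ± 0.25) and Klf4 (108 to 151 CPM; 0.49 ± 0.05) rose. Perp (109 to 73.8 CPM; -0.57 ± 0.07), which encodes a desmosome-associated membrane protein, Krt13 (-0.96 ± 0.22) and Sfn (-1.08 ± 0.37) fell. The basal keratin gene Krt5 had 2 parental and 3 knockout counts, and Trp63, the factor that defines basal cells, 22 and 14. Agr2, whose product has been described as a ligand of C4.4A, had 1 count.

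For each tested gene of the 9, the other tested gene with the most similar pattern was found as the smallest mean absolute difference, over the 8 libraries, in log2 CPM relative to its parental mean. The closest to Ly6m was Sprr2d (0.0704), a small proline-rich gene that went from 7.55 to 229 CPM. A pseudocount was added to the CPM, which made the Ly6m shift 4.88, against its fitted log2 fold change of 8.53. Ly6m was almost absent from the parental libraries, so its match depends on the pseudocount and does not show an equal rise. The closest to Ly6d was Rps26 (0.0127), to Ly6e Bpgm (0.0162), to Plaur Ndufs3 (0.0317), to Ly6a Zc3h4 (0.0352) and to Ly6c1 Tst (0.0364). None of these is a family gene.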

How the data were processed

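The main deposited table held raw counts for 56884 genes in 8 libraries, 4 of each genotype per the labels. A second deposited table held log2 CPM in voom's form. Library preparation started from 100 ng of RNA with a stranded mRNA kit, and reads were paired and 51 bp long, per the labels' protocols. Per the submitters' processing notes, GRCm39, featureCounts 1.6.0, STAR 2.7.9a, FastQC 0.11.8, limma and edgeR were used, in roles that the notes do not state. The sources used here do not give the strand setting or the treatment of multiply mapped reads.

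The raw counts were fitted with edgeR 4.0.16 (R 4.3.3; TMM, filterByExpr, glmQLFit with robust estimation, glmQLFTest, genotype only) on all 8 libraries, and p-values were adjusted over the 13707 genes kept. The SE is the absolute log2 fold change over the square root of F. Genes that passed at 0.05 are said to have risen or fallen. The members and gene lists were chosen with earlier results of these data known, so no list was tested as a set. Named genes were the 9 genes, every relative that passed, up to 3 risers and 3 fallers of smallest adjusted p per list, Plau, Agr2, Cd55, neighbours with at least 10 counts, and the nearest patterns (pseudocount 0.5). Some genes that this rule takes are not reported here, though counts over the lists include them. Ly6i, Gml, Gml2, Ly6g5b, Pate8, Plg, Vtn, Plat, Lrp1, Itgav, Itga5, Itgb1, Anxa2, Cd46, Ifit1, Ifit2, Isg15, Krt5 and Trp63 were added after their values had been seen. In data simulated for the 13707 genes with 200 changed, 81.5% of genes changed 1.5-fold, 89.2% of those changed 2-fold and 100% of those changed 4-fold were recovered, and 4.40% of calls were false. That simulation altered far fewer genes than the 67.9% called in the real libraries, so its percentages need not hold for these calls. Alternatives were other scalings, filters and tools (DESeq2 1.42.0, limma 3.58.1), a replicate block and leaving out each library. Sequences came from RefSeq (GRCm38.p6) and GENCODE M21 (GRCm38), and gene positions from the count table (GRCm39). Python 3.11.15 and scipy 1.17.1 were used.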

Additional observations from a re-analysis of the deposited data

Results flagged for a closer look

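In 126 groups of 4 libraries, over 63 genes named above, 5 had a library apart from the other 3 by Dixon's test at the 95% level, where chance alone gives about 1 in 20. Ly6m was at 0 CPM in parental replicate 3, and the other parental libraries, with 1 count each, were at 0.0463 to 0.0515 CPM. Pigq was at 77.8 CPM in knockout replicate 3, against 67.8 to 69.1 CPM in the other 3. Gbp2 was at 0.871 CPM in parental replicate 3, against 1.19 to 1.24 CPM. Phldb3, a neighbour of Lypd3, was at 12 CPM in parental replicate 1, against 10.4 to 10.5 CPM, and at 6.19 CPM in knockout replicate 1, against 4.50 to 4.78 CPM.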

How the results depend on the processing

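Of 255 counts recomputed under the alternatives, 252 stayed within 1.5 times the reported count. Most were counts of calls. The rest counted the tested members that were higher in the knockout libraries, without a test, and stayed at 3 throughout. With a filter of 1 CPM in 4 libraries, which left 10 relatives, 3 relatives were higher in place of 5. Leaving out 1 library gave 3 to 5 complement genes as lower, 4 to 6 relatives as higher and 7 as lower in each case. The 6 tested members kept their direction in every alternative run. Their log2 fold changes ranged from -0.49 to -0.33 for Ly6a, from -0.95 to -0.82 for Ly6c1, from 0.37 to 0.50 for Ly6d, from -0.61 to -0.50 for Ly6e, from 0.49 to 0.60 for Plaur and from 8.13 to 8.74 for Ly6m, which depends on the prior count. Scaling by library size alone moved the median of all tested genes to -0.07. Under it Plau passed (log2 fold change -0.22, adjusted p = 0.00660 by edgeR) and Kcnn4 did not (edgeR adjusted p = 0.0538). The labels do not say whether replicate numbers pair the libraries. Deviations of same-numbered libraries correlated at 0.0352, -0.00771, -0.121 and 0.00340, within the range of different-numbered ones, -0.131 to 0.138. Such values show no shared signal by number but cannot settle whether the cultures were paired. With the replicate block 4593 genes were higher and 4516 lower, against 4716 and 4595, with 5 relatives higher and 7 lower as before. Depth limited Ly6k, Cd59a and Lypd3, where 1 count was worth 0.0388 to 0.0515 CPM.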
